A study of Mus musculus with 12 samples.

Results

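The 7 genes described here were Klf2, Klf3, S1pr1, S1pr3, S1pr4, Itgb7 and Cnr2, a set of transcription factors, receptors and an adhesion molecule that act in the migration and positioning of B cells. They were found by symbol in the annotation of the arrays' probe sets, and the brightest probe set, by its mean over the arrays, stood for each gene. All 7 were among the 9307 genes tested, of 18194 genes named on the arrays. Total RNA of sorted splenic B cells was measured on 12 Affymetrix arrays from female C57BL/6 mice aged 10 weeks. Marginal zone (MZ) and follicular (FO) cells were each taken from 3 genotypes, with 2 arrays per group: homozygous mice with 2 floxed Bcl6 alleles (flox/flox), heterozygous mice with 1 (+/flox) and wild-type mice with 0 (+/+). All mice, wild-type included, were mb1-cre(+/-), an allele that drives Cre recombinase in the B lineage from its early stages. FO cells were sorted as AA4.1-negative B220+ cells with intermediate CD21 that carried CD23, and MZ cells by high CD21 and low CD23.

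KLF2 is a zinc finger transcription factor of quiescent lymphocytes that turns on the genes of recirculation. Among these are the sphingosine 1-phosphate (S1P) receptor S1PR1, through which lymphocytes follow S1P out of tissues, and integrin beta 7. KLF3 is a related factor that mostly represses. FO B cells recirculate through blood and lymph, whereas MZ B cells of the mouse stay in the spleen, shuttling between the marginal zone and the follicle. BCL6 is a transcriptional repressor best known from germinal centre B cells.

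Values are on the log2 scale throughout, so a difference of 1 is a doubling, and the 2 values of a group are given as replicate 1 and replicate 2. The deposited minimum was 2.21262 on FO arrays and 2.21924 on MZ arrays, so separate normalization of FO and MZ arrays is possible and cannot be told apart from a cell type difference. Correlations between the 2 arrays of a group were 0.975 to 0.984 over tested genes, except 0.944 in MZ wild-type. Gapdh controls differed by 6.90 between the 3' and 5' ends on MZ wild-type replicate 1 and by -0.20 to 0.63 on the other 11 arrays. Fcer2a, which encodes CD23, lay at 8.85 to 9.50 on MZ arrays and 13.63 to 14.25 on FO arrays. Of 10 T cell markers 8 lay within 0.5 of the minimum on all arrays, as did 5 of 6 NK cell, 7 of 8 endothelial and stromal and 5 of 11 macrophage and monocyte markers. The NK cell gene Prf1 lay at 3.55 to 6.24 on MZ arrays and 2.28 to 2.50 on FO arrays. The macrophage genes did not share a direction. Csf1r lay at 4.30 to 5.69 on MZ arrays and 2.24 to 3.45 on FO arrays. Adgre1 went the other way, at 4.64 to 6.41 on FO arrays and lower on all MZ arrays (mean 3.29). C1qb overlapped, at 5.66 to 7.75 on MZ arrays and 5.14 to 6.74 on FO arrays. The mean of the 11 macrophage and monocyte markers was 3.11 to 3.67 on replicate 1 of the 6 groups and 2.87 to 3.01 on replicate 2, and the part of these markers in the results was not tested. The mean of 8 neutrophil markers was 3.91, 4.52, 5.27 and 3.99 on replicate 1 of MZ homozygous, MZ wild-type, FO homozygous and FO heterozygous cells, and 2.26 to 2.28 on the other 8 arrays. The mean of 14 tested immediate early genes, which respond within minutes to stimulation or handling, ran from 8.18 to 11.83 on MZ arrays and from 9.58 to 12.14 on FO arrays. The targeted gene Bcl6 had 2 probe sets. The brighter one lay at 9.95 and 10.37 in MZ homozygous and 9.44 and 9.38 in MZ heterozygous against 8.29 and 8.81 in MZ wild-type cells. In FO cells it lay at 12.70 and 12.88 in homozygous and 11.91 and 12.11 in heterozygous against 11.95 and 11.65 in wild-type cells. The dimmer one lay at 2.36 and 2.48 in FO homozygous and 4.93 and 4.86 in FO heterozygous against 4.94 and 5.61 in FO wild-type cells, and at the minimum on all MZ arrays. The exons they cover are not given in the sources used here, and neither checks the genotype labels.

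Promoters of 6 of the 7 genes were found in a RefSeq table (build GRCm38.p6), as windows from 250 bases before to 50 bases after the start of the gene. Those of Klf2, Klf3 and Itgb7, 3 of the members that were lower in MZ cells, and of S1pr3, which was higher, are shown to let the sequences be set beside the values, 5′ to 3′ on the strand of the gene. Capitals mark CACCC, the core of the motif bound by KLF factors, or its reverse complement GGGTG. The Klf2 window is chr8:72318812-72319111 on the plus strand, Klf3 chr5:64803271-64803570 on the plus strand, Itgb7 chr15:102231886-102232185 on the minus strand and S1pr3 chr13:51408368-51408667 on the plus strand.
Klf2: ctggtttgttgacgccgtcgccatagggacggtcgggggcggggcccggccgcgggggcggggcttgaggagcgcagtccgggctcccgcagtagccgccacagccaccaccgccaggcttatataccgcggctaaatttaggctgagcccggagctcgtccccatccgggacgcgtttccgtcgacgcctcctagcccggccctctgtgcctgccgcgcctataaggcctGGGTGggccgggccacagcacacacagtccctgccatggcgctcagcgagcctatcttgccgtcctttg
Klf3: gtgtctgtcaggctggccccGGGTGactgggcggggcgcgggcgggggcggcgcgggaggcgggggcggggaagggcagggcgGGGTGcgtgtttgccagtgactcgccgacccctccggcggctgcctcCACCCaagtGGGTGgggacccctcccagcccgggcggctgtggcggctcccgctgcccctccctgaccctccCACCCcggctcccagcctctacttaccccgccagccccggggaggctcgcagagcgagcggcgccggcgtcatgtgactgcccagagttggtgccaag
Itgb7: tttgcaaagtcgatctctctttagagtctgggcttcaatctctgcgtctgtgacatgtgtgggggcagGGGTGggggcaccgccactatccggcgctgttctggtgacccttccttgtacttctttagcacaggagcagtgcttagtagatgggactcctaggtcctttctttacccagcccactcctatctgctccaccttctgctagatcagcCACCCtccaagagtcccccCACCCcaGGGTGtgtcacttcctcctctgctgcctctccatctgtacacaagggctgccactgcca
S1pr3: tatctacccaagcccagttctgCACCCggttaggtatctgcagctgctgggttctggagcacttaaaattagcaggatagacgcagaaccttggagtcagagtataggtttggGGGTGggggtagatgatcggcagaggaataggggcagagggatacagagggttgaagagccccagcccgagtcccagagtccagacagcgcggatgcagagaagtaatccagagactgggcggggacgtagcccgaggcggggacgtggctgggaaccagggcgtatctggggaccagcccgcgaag
Klf3 held 5 matches, Itgb7 4, S1pr3 2, and Klf2 and S1pr4 1 each. Of the 2 Cnr2 windows, 1 held a single match and the other 0. A match was common: 57.5% of 32851 promoters of the same length held one on either strand. The wider motif CCNCNCCC, which can overlap CACCC, was found 10 times in Klf3, 4 times in Klf2, 3 times in S1pr3, 2 times in Itgb7, 3 times in 1 Cnr2 window and 0 times in S1pr4, and in 49.5% of promoters. The BCL6 core TTCNNNGAA and the FOXO motif TGTTTAC were found in 0 windows of these genes, against 8.3% and 3.65% of all promoters. These 4 motifs were the ones searched, and a match is a description of the letters, not a binding site.

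Between MZ and FO cells, averaged over the 3 genotypes, S1pr3 and S1pr1 were higher in MZ cells and Klf2, Klf3, S1pr4 and Itgb7 were lower, while Cnr2 did not pass the test. These 6 of 7 calls stood against 44.5% of all tested genes called in the same comparison (limma, Benjamini-Hochberg adjusted p under 0.05). By direction, 2 were higher, against 16.2% of genes, and 4 lower, against 28.2%. The median change of the 7 was -1.60, against -0.17 over all tested genes. With each array centred on its median, the median of all genes was -0.01 and calls split into 54.3% higher, against 36.5% higher without centring. Under that scaling the 6 members kept their direction and their call. Without the 4 arrays that carried neutrophil markers 5 members were called, S1pr1 no longer (0.95, limma adjusted p = 0.0825), an alternative chosen after seeing the data.

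**Figure D1:**
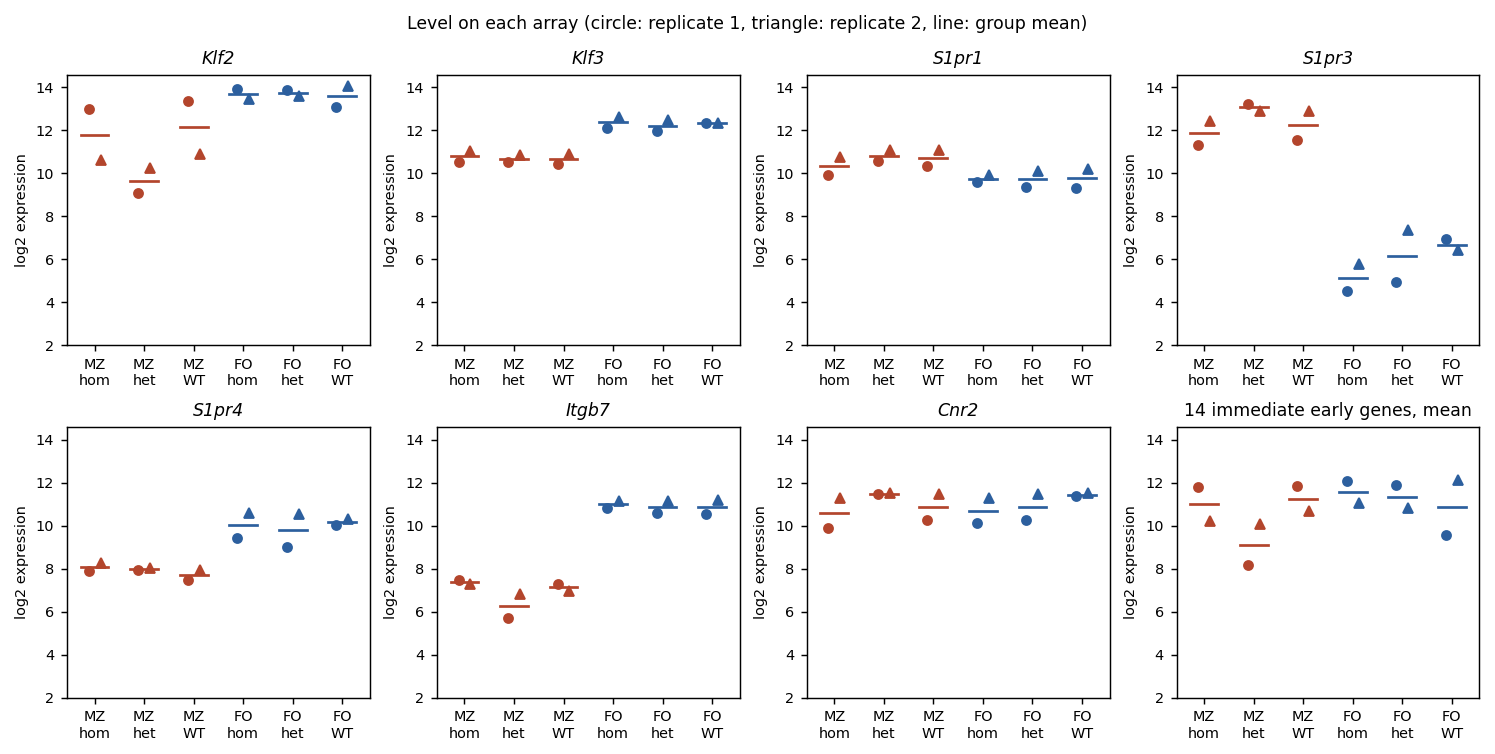
Level of each of the 7 genes, and the mean of 14 immediate early genes, on the log2 scale (y axis) on each of the 12 arrays by group (x axis; hom, het and WT are homozygous, heterozygous and wild-type). Circles and triangles are replicates 1 and 2 and lines are group means; S1pr3 lies at 11.32 or more on all MZ arrays and 7.37 or less on all FO arrays, while Cnr2 runs from 9.88 to 11.52 on MZ and from 10.12 to 11.51 on FO arrays.

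Klf2 was lower in MZ cells but varied widely among them. Its probe set lay at 12.99 and 10.60 in MZ homozygous, 9.07 and 10.26 in MZ heterozygous and 13.39 and 10.89 in MZ wild-type cells. In FO cells it lay at 13.93 and 13.44 in homozygous, 13.87 and 13.59 in heterozygous and 13.10 and 14.07 in wild-type cells. The MZ values spread over 4.32 log2 units and the FO values over 0.97, and MZ wild-type replicate 1 lay inside the FO range. The 2 highest MZ arrays, replicate 1 of homozygous and of wild-type cells, were the 2 MZ arrays with neutrophil markers, and the wild-type one had the Gapdh difference of 6.90, while the other 4 MZ arrays lay at 9.07 to 10.89. The part of these signs in the Klf2 levels was not tested. These 2 arrays also had the highest immediate early means of the MZ arrays, 11.81 and 11.83, against 8.18 to 10.68 on the other 4. Leaving out the arrays with neutrophil markers thus also left out those highest means. The mean difference, MZ minus FO, was -2.47 ± 0.54 (SE; limma adjusted p = 0.00625). By genotype it was -1.89 ± 0.94 in homozygous (limma adjusted p = 0.214), -4.07 ± 0.94 in heterozygous (0.0156) and -1.44 ± 0.94 in wild-type cells (0.313), and whether the heterozygous change differed from the others was not tested. Single arrays moved these values: leaving out MZ replicate 1 gave -3.08 for homozygous and -2.69 for wild-type cells, and leaving out MZ replicate 2 gave -0.69 for homozygous and -0.20 for wild-type cells. Without the 4 arrays with neutrophil markers the changes were -2.84 for homozygous, -3.92 for heterozygous and -2.69 for wild-type cells, and -3.15 ± 0.43 over the 3 genotypes (limma adjusted p = 0.0153). In the order of group means the FO groups came first and overlapped each other, then MZ wild-type, which FO wild-type and MZ homozygous each overlapped, then MZ homozygous, and last MZ heterozygous, whose arrays lay below all others.

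Klf2 moved with the immediate early genes among MZ arrays. Over the 6 MZ arrays, of 3 genotypes, Pearson's r was 0.95 and Spearman's rho 1.0, each with p = 0.0028 in an exact two-sided permutation test, the smallest that 720 pairings can give. The adjusted p over the 14 relations computed, 7 genes in each cell type, was 0.0389. Leaving out the 2 arrays farthest from the median immediate early mean gave r = 0.99, but with 4 arrays left r was large in size for all 14 relations (the smallest in size was -0.63, for S1pr4 in MZ cells), so this value shows nothing about stability. The relation did not pass over the 6 FO arrays, where r was 0.97 (exact permutation p = 0.0139, adjusted p = 0.0972) and rho 0.94 (p = 0.0167, adjusted p = 0.117). The other 12 relations did not pass, and all 14 were computed after the Klf2 values had been seen beside the immediate early means. MZ heterozygous replicate 1 had both the lowest Klf2 level, 9.07, and the lowest immediate early mean, 8.18. With the immediate early mean as a covariate, chosen after seeing the data, Klf2 was lower in MZ cells by a log2 change of -1.87 ± 0.39 (limma adjusted p = 0.00653) over the 3 genotypes. In heterozygous cells the change was then -2.38 (adjusted p = 0.0890). The covariate was fitted with the same slope for all 12 arrays, although Klf2 spread over 4.32 log2 units on MZ and 0.97 on FO arrays. Whether the slope differed between groups was not tested, so changes under the covariate, here and below, rest on that assumption.

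**Figure D2:**
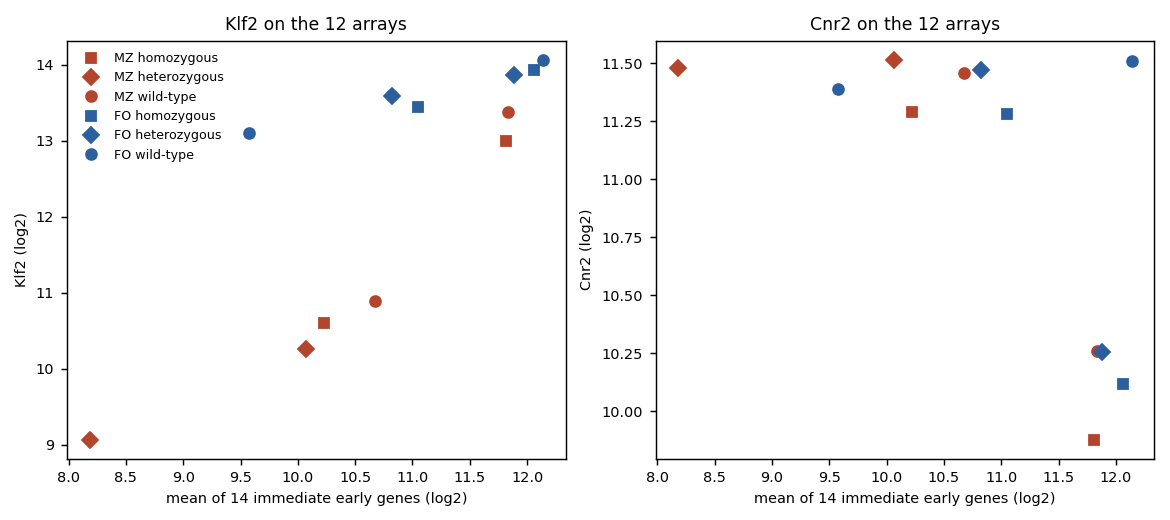
Klf2 (left) and Cnr2 (right) on the log2 scale (y axes) against the mean of 14 immediate early genes (x axes) on the 12 arrays, with MZ arrays in red and FO arrays in blue and the symbol giving the genotype. Klf2 is higher where the immediate early mean is higher among the 6 MZ arrays (r = 0.95), and FO arrays lie above MZ arrays of a like mean; for Cnr2, 4 arrays lie at 10.26 or less and the other 8 at 11.28 or more.

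Klf3 was lower in MZ cells on every array. It lay at 10.54 and 11.05 in MZ homozygous, 10.52 and 10.87 in MZ heterozygous and 10.42 and 10.92 in MZ wild-type cells. The FO values were 12.13 and 12.64 in homozygous, 11.98 and 12.47 in heterozygous and 12.34 and 12.37 in wild-type cells. No MZ array reached the lowest FO array, as held for 17% of tested genes. The mean difference was -1.60 ± 0.17 (limma adjusted p = 9.16e-05), and the 3 genotypes gave changes of -1.59, -1.53 and -1.68 for homozygous, heterozygous and wild-type cells, each called (adjusted p from 0.00365 to 0.00605). The heterozygous call was lost without MZ heterozygous replicate 1 (limma adjusted p = 0.0535). Of the 7 Klf3 probe sets, 6 were called lower in MZ cells in a model over all probe sets, and the seventh lay at the minimum on all arrays but 1.

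Among the S1P receptors, S1pr3, which couples to several classes of G protein, showed the widest difference of the 7 genes. It lay at 11.32 and 12.45 in MZ homozygous, 13.24 and 12.92 in MZ heterozygous and 11.57 and 12.92 in MZ wild-type cells. The FO values were 4.51 and 5.78 in homozygous, 4.97 and 7.37 in heterozygous and 6.93 and 6.44 in wild-type cells. All MZ arrays stood far above all FO arrays, and the FO arrays varied more among themselves. The mean difference was 6.40 ± 0.47 (limma adjusted p = 1.08e-05), an 84.7-fold higher level, and every genotype passed, with changes of 6.74, 6.91 and 5.56 for homozygous, heterozygous and wild-type cells. Arrays did not overlap in this direction for 11.4% of tested genes. A dimmer S1pr3 probe set differed by 7.01 ± 0.34 (limma adjusted p = 9.18e-06 over all probe sets), with FO values near the minimum, and the third lay within 0.5 of the minimum on all arrays (a difference of 0.33).

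S1pr1, the receptor of lymphocyte egress, was higher in MZ cells by less than 1 log2 unit. It lay at 9.91 and 10.76 in MZ homozygous, 10.56 and 11.09 in MZ heterozygous and 10.34 and 11.07 in MZ wild-type cells. The FO values were 9.59 and 9.92 in homozygous, 9.38 and 10.11 in heterozygous and 9.34 and 10.19 in wild-type cells. The cell types overlapped, since MZ homozygous replicate 1 lay below 3 FO arrays. The mean difference was 0.87 ± 0.25 (limma adjusted p = 0.0219), and no single genotype passed (0.58, 1.09 and 0.94 for homozygous, heterozygous and wild-type cells, adjusted p from 0.108 to 0.412). The call on the mean was lost without replicate 1 of any FO group, or without replicate 2 of MZ heterozygous or MZ homozygous cells (adjusted p from 0.0538 to 0.0598).

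S1pr4, a receptor of lymphoid and myeloid cells, went the other way from S1pr3 and S1pr1. It lay at 7.91 and 8.25 in MZ homozygous, 7.93 and 8.02 in MZ heterozygous and 7.48 and 7.94 in MZ wild-type cells. The FO values were 9.45 and 10.58 in homozygous, 9.02 and 10.54 in heterozygous and 10.04 and 10.32 in wild-type cells. No MZ array reached the FO range, and the MZ arrays lay closer together than the FO arrays. The mean difference was -2.07 ± 0.29 (limma adjusted p = 5.51e-04), with -1.93, -1.80 and -2.47 for homozygous, heterozygous and wild-type cells, each called (adjusted p from 0.00879 to 0.0334). The homozygous call was lost without MZ homozygous replicate 1 or 2 or FO homozygous replicate 2 (limma adjusted p from 0.0885 to 0.176). The heterozygous call was lost without any MZ heterozygous or MZ homozygous array or FO heterozygous replicate 2 (0.0514 to 0.165), and the wild-type call without MZ wild-type replicate 1 (0.0520) or FO wild-type replicate 2 (0.0554). S1pr2 and S1pr5 lay below the filter on low values and were not tested.

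Integrin beta 7, which pairs with alpha 4 or alpha E chains and in the alpha 4 pair carries lymphocytes to the gut, was the most reduced of the 7 in MZ cells. Itgb7 lay at 7.50 and 7.27 in MZ homozygous, 5.72 and 6.82 in MZ heterozygous and 7.31 and 6.98 in MZ wild-type cells. The FO values were 10.83 and 11.16 in homozygous, 10.59 and 11.16 in heterozygous and 10.52 and 11.21 in wild-type cells. The 2 ranges did not meet, and MZ heterozygous replicate 1 was the lowest array. The mean difference was -3.98 ± 0.22 (limma adjusted p = 2.11e-06), a level 15.8-fold lower in MZ cells, and the changes were -3.61, -4.61 and -3.73 for homozygous, heterozygous and wild-type cells, all called.

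Cnr2, the cannabinoid receptor CB2 of B cells, which takes part in holding B cells in place in the mouse marginal zone, did not pass between the cell types. It lay at 9.88 and 11.29 in MZ homozygous, 11.48 and 11.52 in MZ heterozygous and 10.26 and 11.46 in MZ wild-type cells. The FO values were 10.12 and 11.28 in homozygous, 10.26 and 11.47 in heterozygous and 11.39 and 11.51 in wild-type cells. The 4 arrays between 9.88 and 10.26 were the 4 that carried neutrophil markers, and the other 8 lay between 11.28 and 11.52. Of those markers, S100a8 lay at 7.63, 8.11, 9.17 and 7.55 there and at 2.66 or less elsewhere, while the neutrophil genes Elane, Mpo and Mmp8 lay near the minimum on all arrays. Cxcr5, the receptor that leads B cells into follicles, was low on the same 4 arrays, at 10.53 to 10.95 against 12.03 to 12.62 on the others. The part of these values in the Cnr2 levels was not tested. The mean Cnr2 difference, MZ minus FO, was -0.02 ± 0.36 (limma adjusted p = 0.965; 95% interval -0.84 to 0.80), and without the 4 arrays it was 0.02. That fit left out the arrays where Cnr2 was low and had 2 residual degrees of freedom. Its spread came from MZ heterozygous and FO wild-type cells, whose Cnr2 SDs were 0.03 and 0.08, so it cannot measure the precision of that value.

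The order of group means followed cell type for Klf3, S1pr3, S1pr4 and Itgb7: the 3 groups of one cell type stood above the 3 of the other, with no overlap between them. Within a cell type, groups next to each other in that order overlapped for these 4 genes, except that Itgb7 lay lower on both MZ heterozygous than on both MZ wild-type arrays. For S1pr1 and Cnr2 each group overlapped the next in the order. Klf3, S1pr1, S1pr4 and Cnr2 each lay lower on replicate 1 than on replicate 2 in all 6 groups. The share of all tested genes with that order was not computed, so it is not read as a trait of these genes.

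**Figure D3:**
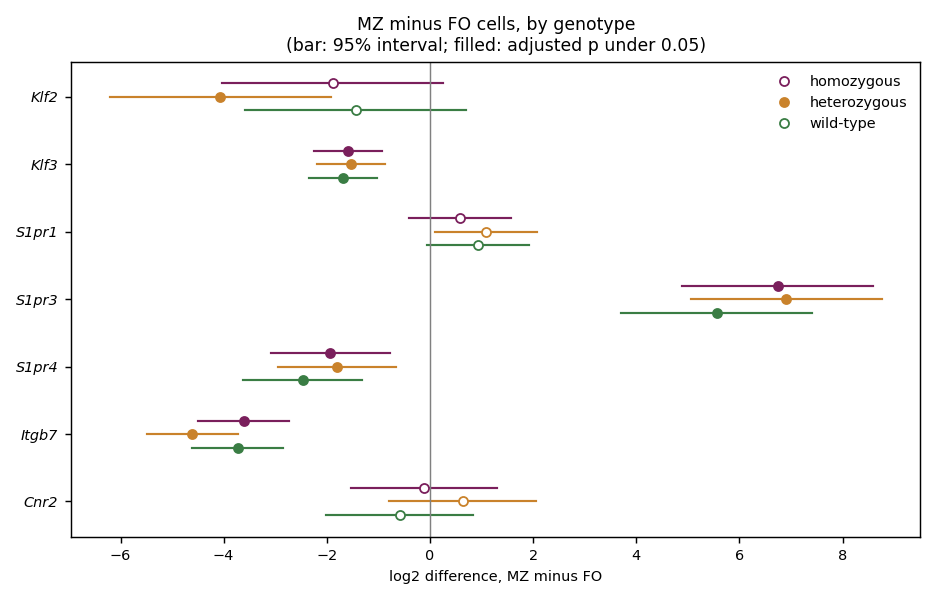
Log2 difference of MZ minus FO cells (x axis) for each of the 7 genes (y axis) in homozygous, heterozygous and wild-type mice, with 95% intervals as bars and filled points where the limma adjusted p was under 0.05. Klf3, S1pr3, S1pr4 and Itgb7 are filled in all 3 genotypes and Klf2 in heterozygous cells alone.

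In single genotypes, 4 members were called in homozygous cells (19.1% of all tested genes), 5 in heterozygous cells (23.2%) and 4 in wild-type cells (22.2%). Klf3, S1pr3, S1pr4 and Itgb7 were called in each. In homozygous cells, without the 4 arrays with neutrophil markers, Klf3 and Itgb7 were not called, with changes of -1.59 and -3.88. That comparison set 1 array against 1, took its spread from other groups with 2 residual degrees of freedom, and assumed that the lone arrays vary like those. In heterozygous cells the count was 3 with the immediate early mean as a covariate, 3 without FO heterozygous replicate 2 and 2 without MZ heterozygous replicate 1. The heterozygous Klf2 call was lost without FO heterozygous replicate 1 (limma adjusted p = 0.0795), FO heterozygous replicate 2 (0.0638) or MZ heterozygous replicate 1 (0.109).

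None of the 7 genes passed the test for deletion of Bcl6. Homozygous against wild-type cells gave 0 of 7 called with limma in MZ cells (0.0645% of all tested genes called), in FO cells (0.43%) and in the mean of both (0.462%). At an unadjusted limma p under 0.05 there were 0 members, against 6.08%, 6.97% and 9.07% of all tested genes in the same order. In that mean the largest change was that of S1pr3, -0.95 ± 0.57 (95% interval -2.26 to 0.36; limma adjusted p = 0.681), followed by Cnr2 at -0.51 ± 0.44 (interval -1.52 to 0.49), which was -0.17 without the 4 arrays with neutrophil markers. Klf2 changed by -0.12, with an interval from -1.64 to 1.40, the widest of the 7. The intervals were narrower for Klf3 (0.08; -0.39 to 0.54), Itgb7 (0.18; -0.44 to 0.81), S1pr1 (-0.19; -0.89 to 0.51) and S1pr4 (0.10; -0.71 to 0.92).

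**Figure D4:**
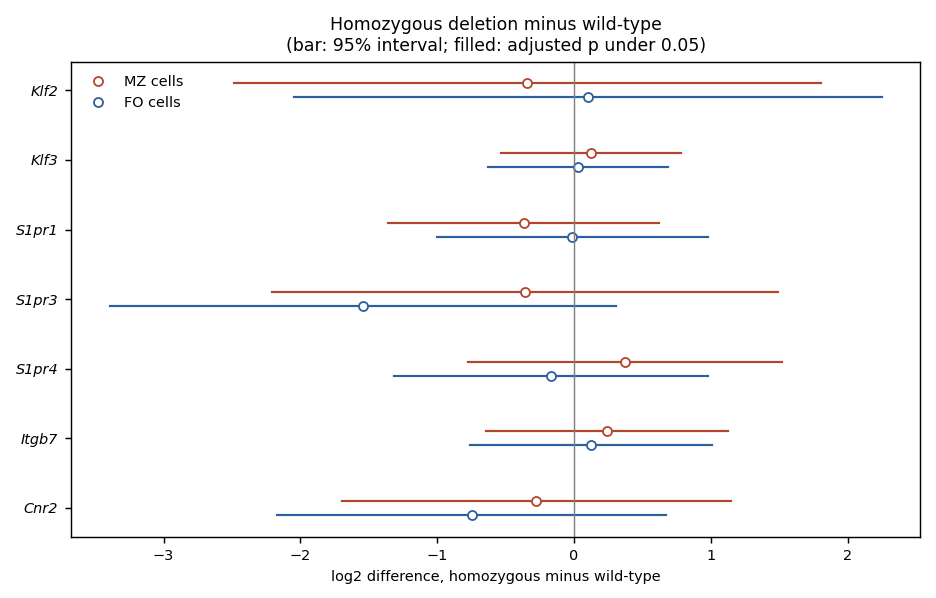
Log2 difference of homozygous minus wild-type cells (x axis) for each of the 7 genes (y axis) in MZ and FO cells, with 95% intervals as bars; open points mark a limma adjusted p of 0.05 or more. All 14 points are open and all intervals span 0.

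In FO cells, S1pr3 and Cnr2 lay lower on both homozygous than on both wild-type arrays, as held for 15.9% of tested genes. S1pr3 lay at 4.51 and 5.78 in FO homozygous against 6.93 and 6.44 in FO wild-type cells, a change of -1.54 ± 0.81 (limma adjusted p = 0.846), and of -0.91 without the 4 arrays with neutrophil markers. The dimmer S1pr3 probe set, near the minimum in FO cells, changed by -0.038 ± 0.59 there and by -0.49 ± 0.41 in the mean of both cell types. Cnr2 lay at 10.12 and 11.28 against 11.39 and 11.51, a change of -0.75 ± 0.62 (adjusted p = 0.945), and only FO homozygous replicate 1 carried neutrophil markers. Without the 4 arrays with those markers the Cnr2 change was -0.17. Of 8 MZ markers outside the 7 genes, Ackr3 lay at 12.15 and 11.14 in FO homozygous, against 2.35 and 2.35 in FO wild-type cells. The mean of the other 7 markers was 9.31 and 9.12 in FO homozygous, against 8.78 and 9.03 in FO wild-type cells. Of these, Cd1d1 (12.01 and 12.24, against 11.39 and 10.83), Cd9 (8.21 and 7.33, against 7.21 and 7.15) and Plxnd1 (4.75 and 4.17, against 2.63 and 3.59) were higher in homozygous cells. Cr2 (12.07 and 12.62, against 12.84 and 13.37) and Notch2 (12.62 and 12.63, against 12.67 and 12.85) were lower, and Dtx1 and Myof overlapped. The part of these markers in the values of S1pr3 and Cnr2 was not tested. The homozygous effect itself was compared between MZ and FO cells, with 0 members called by limma (0.0107% of genes) and 0 at an unadjusted p under 0.05 (3.74% of genes).

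Heterozygous against wild-type cells gave 0 of 7 calls with limma in MZ cells (0.0107% of genes) and FO cells (0%), where 0 members had an unadjusted p under 0.05 (1.98% of all tested genes). Klf2 was the 1 member below that level in MZ cells, against 3.08% of all tested genes. It lay at 9.07 and 10.26 in heterozygous against 13.39 and 10.89 in wild-type cells, a change of -2.48 ± 0.94 (limma adjusted p = 0.792). With the immediate early mean as a covariate that change was -0.87 ± 0.76, and without the 4 arrays with neutrophil markers it was -1.23 ± 0.70. Itgb7 was also lower on both MZ heterozygous arrays (-0.87 ± 0.39; limma adjusted p = 0.792) and Cnr2 higher (0.64 ± 0.62; 0.800), where 17.8% and 10.4% of genes did not overlap in these directions. With the covariate these changes were -0.39 for Itgb7 and -0.12 for Cnr2, and without the 4 arrays they were -0.71 and 0.04. Homozygous against heterozygous cells again gave 0 calls in MZ (0.0322% of genes) and FO cells (0.0752%), with 0 members of FO cells at an unadjusted p under 0.05 (3.03% of all tested genes). In MZ cells Itgb7 was the 1 member below that level, against 5.44% of all tested genes. Its unadjusted limma p was 0.0193 (1.12 ± 0.39, adjusted p = 0.834), with a change of 0.69 under the covariate. On these MZ arrays Klf2 was also higher in homozygous than in heterozygous cells, by 2.14 ± 0.94 (limma adjusted p = 0.901; 18.4% of genes did not overlap in this direction), a change of 0.70 with the covariate and 0.94 without the 4 arrays. S1pr3 and Cnr2 were lower, by log2 changes of -1.19 ± 0.81 and -0.91 ± 0.62 (limma adjusted p = 0.901 each; 20.4%). These changes were -0.13 and -0.24 with the covariate, and -0.62 and -0.21 without the 4 arrays.

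The genes around the 7 were described by lists of their pathways for MZ against FO cells, averaged over genotypes. The counts stand against 16.2% of all tested genes called higher and 28.2% called lower. Of 11 tested KLF family genes, 0 were higher and 5 lower in MZ cells (median -0.94, against -0.17 over all tested genes): Klf3, Klf16, Klf7, Klf2 and Klf11. Klf16 changed by -1.52 ± 0.19 and Klf7 by -0.75 ± 0.11. Among 11 regulators of Klf2, the transcription factors Mef2c (-1.07, limma adjusted p = 1.72e-05) and Mef2d (-0.82, 0.0118) and the kinase Mapk7, or ERK5 (-0.40, 0.0148), which acts on MEF2 factors, were lower and 0 were higher (median -0.40). Foxo1, a factor that turns on Klf2, differed by -0.54 (limma adjusted p = 0.0726).

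Of 11 tested genes of S1P reception and metabolism, 3 were higher and 3 lower (median -0.29), against 16.2% higher and 28.2% lower over all genes. Besides the members these were lipid phosphatases, Plpp3 higher by 1.79 ± 0.13 and Plpp2 lower (-2.72 ± 0.09), and the S1P exporter Spns2, also lower (-1.91 ± 0.18). Plpp2 lay near the minimum on MZ arrays, at 2.50 to 2.84, against 5.06 to 5.46 on FO arrays. Of 26 genes of egress signalling and receptor desensitisation, 3 were higher and 12 lower (median -0.57). Rgs10, which ends G protein signals, rose by 5.48 ± 0.18 and the receptor kinase Grk5 by 1.38 ± 0.16 in MZ cells, while the G protein subunit Gna12 (-1.20 ± 0.14) and the kinase Grk6 (-0.61 ± 0.08) were lower.

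Itgb7 had company among 17 tested adhesion genes, of which 4 were higher and 8 lower (median -0.34), where 16.2% of all genes were higher and 28.2% lower. The integrin chains Itgb3 (-3.10 ± 0.10) and Itga6 (-3.22 ± 0.14) were lower and Itgb1 was higher (1.0 ± 0.09). Itga4, the partner of Itgb7 in gut homing, changed by -0.58 ± 0.18 (limma adjusted p = 0.0276). Of 11 tested homing and positioning receptors, 2 were higher, Ackr3 and Gpr34, and 4 lower (median -0.75). Ccr7, which leads lymphocytes to T cell zones, lay at 9.10 to 11.23 on MZ arrays and 11.30 to 12.42 on FO arrays, a difference of -1.94 ± 0.27 (limma adjusted p = 4.95e-04), whereas Cxcr5 did not pass (-0.03, adjusted p = 0.970). Of 6 tested endocannabinoid genes, the hydrolases Abhd6 (0.72), Abhd12 (0.55) and Faah (0.60) were higher and 0 were lower (median 0.27). For homozygous against wild-type cells, limma called 0 genes of these 7 lists in MZ cells. Ackr3, a scavenging receptor of chemokines, was called alone in FO cells (9.29 ± 1.08, adjusted p = 0.0114) and in the mean (5.11 ± 0.76, 0.0361). At an unadjusted limma p under 0.05, MZ cells had 3 of 11 KLF family and 3 of 17 adhesion genes (6.08% of all genes). FO cells had 4 of 26 egress, 4 of 11 homing, 3 of 17 adhesion, 1 of 11 KLF family and 1 of 11 S1P genes (6.97% of all genes).

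**Figure D5:**
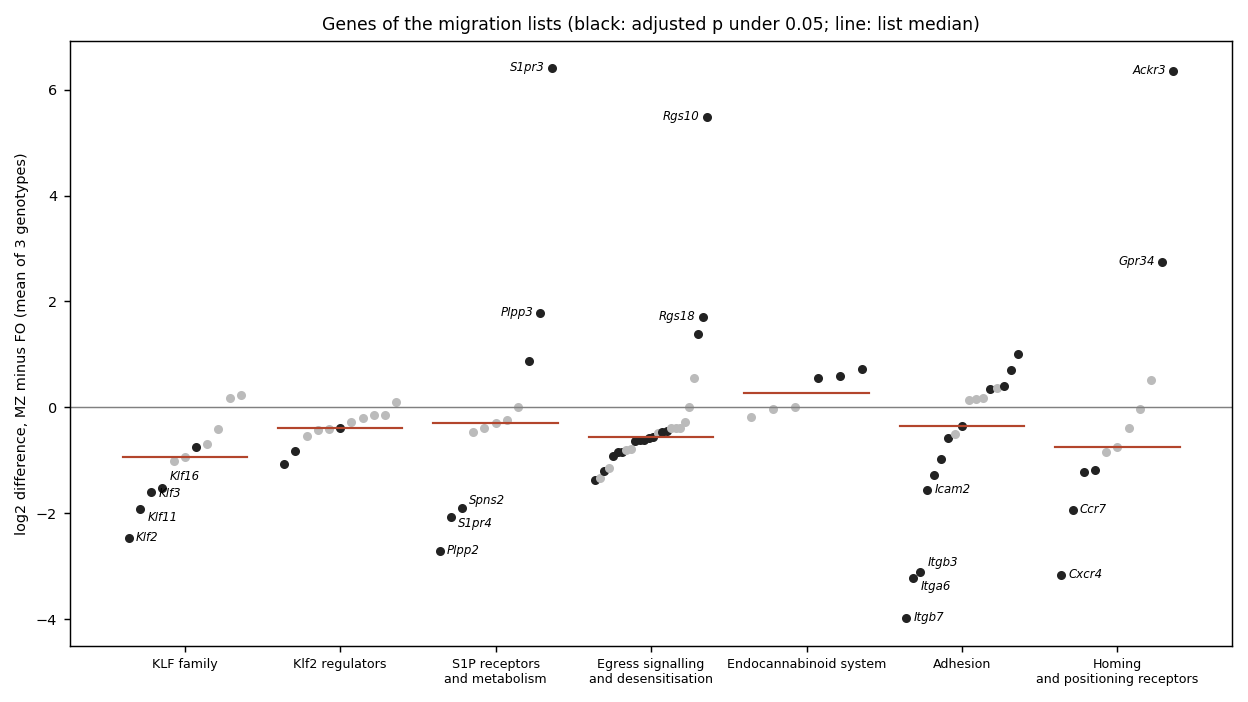
Log2 difference of MZ minus FO cells, averaged over 3 genotypes (y axis), for each tested gene of 7 pathway lists (x axis), with genes called by limma in black, others in grey and the list median as a red line. Named points are called and lie beyond 1.5; S1pr3 and Itgb7 mark the extremes, at 6.40 and -3.98.

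For each member whose group means spanned over 1 log2 unit, the tested genes with the most similar pattern were found, by the root mean square difference over the 12 arrays after each gene was centred. Nearest to Klf2 were Sgk1 (0.55), Tsc22d3 (0.55) and Pcp4 (0.57). Sgk1, a kinase, lay at 9.55 and 7.12 in MZ homozygous, 4.57 and 6.83 in MZ heterozygous and 10.46 and 7.60 in MZ wild-type cells, against 10.28 to 11.24 on FO arrays, so its lowest array was also MZ heterozygous replicate 1. Nearest to S1pr3 were Pde4d (0.65), AF067061 and Myof, to Itgb7 Ssbp2 (0.35), Fry and Slc2a6, and to S1pr1 Tatdn3 (0.22), Armt1 and Lgmn. Klf3 had the closest match of all, Ifnar1 (0.13), followed by Lmo2 and Chst15, and S1pr4 lay nearest to Txndc5 (0.20), Dusp7 and Ifnar1. Cnr2 did not span 1 log2 unit.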

How the data were processed

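The authors deposited log2 values for each probe set, which the submitters' processing notes attribute to GCRMA (version not given in the sources used here). This method subtracts background, equalises array distributions and summarises probes, so low values collect at a minimum. Of 45101 probe sets (64 controls), the platform annotation gave 34958 a single symbol, 932 several and listed none for 9211. Testing kept 9307 genes that reached a log2 value of 4 on 2 or more arrays. Group means of 6 groups were fitted over all 12 arrays with limma 3.58.1 in R 4.3.3 (lmFit, eBayes), with two-sided p-values adjusted by Benjamini-Hochberg over all tested genes and a threshold of 0.05. The fit was tested on simulated arrays. Whether arrays of a group stem from different mice is not stated in the labels, and p-values measure only the spread between these samples, possibly technical. If FO and MZ cells shared mice, averages over both treat them as independent. The number of arrays limits the precision, and fewer cells of a type and less RNA per cell cannot be told apart.

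The 7 genes, the pathway lists and the motifs were chosen with earlier results of these data known. Named were the members with every probe set, Bcl6, up to 4 genes with the smallest p per list, some partners of Klf2 (Ccr7, Cxcr5, Foxo1) and the 3 genes of most similar pattern. Klf11, Itga4, Fcer2a, Prf1, Csf1r, S100a8, Elane, Mpo and Mmp8, outside that rule, were chosen after their values were seen. So were Adgre1, C1qb, Cr2, Cd1d1, Cd9, Plxnd1, Notch2 and Dtx1. As alternatives, the filter, the choice of probe set, the moderation of variances, array weights, scaling, the arrays fitted and a replicate block were varied, and each array was left out. The immediate early covariate and the model without the 4 arrays with neutrophil markers were added after seeing the data.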

Additional observations from a re-analysis of the deposited data

How the results depend on the processing

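Of 84 member changes computed (7 genes in 12 comparisons), 44 are given in the text, each recomputed under every alternative that could be fitted. This set was narrowed after the alternatives had been seen. The other 40 were not called in any setting, and 36 of them changed sign in at least 1. For MZ minus FO over the 3 genotypes, the 6 called members kept their direction, from 4.58 to 6.80 for S1pr3, -4.22 to -3.80 for Itgb7, -3.15 to -1.87 for Klf2, -1.69 to -1.37 for Klf3, -2.38 to -1.81 for S1pr4 and 0.73 to 1.09 for S1pr1, and 5 or 6 members were called without each array in turn. The count in heterozygous cells was 3 with the immediate early mean as a covariate and 2 to 5 without each array. The count in homozygous cells was 2 without the 4 arrays with neutrophil markers, where fewer arrays were fitted. The cause of these losses was not tested.

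S1pr4 lost its genotype calls most often. In homozygous cells the limma adjusted p was 0.0731 with the compared arrays alone and up to 0.176 without 1 array, and in heterozygous cells it was 0.106 with those arrays alone, 0.0579 with the covariate and up to 0.165 without 1 array (a change of -1.04 without FO heterozygous replicate 2). In wild-type cells it was 0.0554 without replicate 2 of FO and 0.0520 without replicate 1 of MZ cells. Klf3 in heterozygous cells lost its call with the mean over probe sets (0.0547) and without MZ heterozygous replicate 1 (0.0535), and Klf2 there without FO heterozygous replicate 2 (0.0638), MZ heterozygous replicate 1 (0.109) or the 4 arrays (0.0516).

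Same-numbered FO and MZ arrays deviated together in homozygous groups (r = 0.68), less in heterozygous (0.119) and not in wild-type groups (-0.216). Over all 15 pairs of groups r ran from -0.255 to 0.768 and was above 0.1 in 8. The labels do not say what a number shares, so the numbers were not taken to pair the samples. With the replicate block S1pr1 passed in each genotype (limma adjusted p = 0.0398 for homozygous cells, 0.00278 for heterozygous cells and 0.00516 for wild-type cells).

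Changes that were not called reversed in places. For Cnr2, MZ minus FO was 0.12 in homozygous cells and 0.21 in the mean with quantile normalization, 0.063 and 0.14 with centred arrays, 0.0088 and 0.016 without the 4 arrays, and 0.010 in wild-type cells without them. It was -0.15 in heterozygous cells with the covariate, which also gave -0.12 for heterozygous minus wild-type in MZ cells. Without each array in turn it ran from -0.82 to 0.59 in homozygous and from -1.19 to 0.010 in wild-type cells, and from -0.26 to 0.21 in the mean. For homozygous minus wild-type over both cell types, leaving out single arrays gave -0.74 to 0.50 for Klf2, -0.87 to -0.16 for Cnr2, -0.053 to 0.20 for Klf3, -0.40 to 0.023 for S1pr1 and -0.18 to 0.38 for S1pr4.

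Counts over all genes moved more. MZ minus FO called 4137 genes in the mean, 10670 with no filter and 2733 without the 4 arrays. In wild-type cells it called 2066, with 604 from the compared arrays alone. Homozygous minus wild-type called 40 genes in FO cells (7 without FO homozygous replicate 2) and 6 in MZ cells (325 without MZ wild-type replicate 2).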

Other observations

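Cd69, whose protein binds S1PR1 and takes it off the cell surface, is one of the 14 immediate early genes in the mean described with Klf2, so its values are not separate from that relation. It lay at 12.55 and 10.49 in MZ homozygous, 8.91 and 10.76 in MZ heterozygous and 13.56 and 11.56 in MZ wild-type cells, and at 13.08 and 11.79 in FO homozygous, 13.47 and 11.78 in FO heterozygous and 11.40 and 13.20 in FO wild-type cells. The groups overlapped and the difference, MZ minus FO, was -1.15 (limma adjusted p = 0.166). Cxcr4, the receptor for CXCL12, lay at 5.04 on MZ heterozygous replicate 1 and 11.19 on MZ wild-type replicate 1, against 10.31 to 11.58 on FO arrays.

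Gpr34, a lysophosphatidylserine receptor that was higher in MZ cells in the mean, lay at 5.71 and 7.66 in FO homozygous, against 3.12 and 2.71 in FO wild-type cells. The MZ values were 6.04 and 8.02 in homozygous, against 5.85 and 6.98 in wild-type cells. Cd69 and Cxcr4 were chosen for these sentences after their values were seen.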
